A study of Drosophila melanogaster with 6 samples.

Results

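The 8 Hox genes of Drosophila melanogaster (lab, pb, Dfd, Scr, Antp, Ubx, abd-A and Abd-B) were followed in macrophages sorted from embryos. They were chosen by name, and all 8 are among the 17494 genes listed in the deposited files. Hox genes encode homeodomain transcription factors that give cells along the head to tail axis their positional identity. Each is active in its own stretch of segments, in the same order as the genes lie on the chromosome, and Polycomb and trithorax group proteins keep them silent or active through later divisions. Embryonic macrophages (hemocytes) arise in the head mesoderm, in front of most Hox domains, and then migrate through the trunk, whose ectoderm, nervous system and mesoderm express the trunk and abdominal Hox genes. The comparison describes how much Hox RNA the sorted cells held, of which axial level, and how far it varied between replicates and between genotypes.

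The study compared 2 genotypes, with 3 replicates of each. The mac>DfosDN embryos carried the macrophage driver srpHemo-Gal4 with UAS-DfosDN, which expresses a dominant negative form of Dfos, the fly Fos transcription factor encoded by kay. The control embryos carried the driver without UAS-DfosDN. Both carried the srpHemo-3xmCherry marker by which cells were sorted, and both were kept at 29°C up to stage 11 or the start of stage 12. The driver and the marker use the same hemocyte enhancer of srp, embryos of many collections were pooled for a sort, and the sources state 3 replicate sorts per genotype without saying how far they were separate crosses. The p-values therefore measure the spread between these samples.

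The study's methods name a 3′ end library kit, whereas the sample labels name standard Illumina protocols. The deposited values are on the TPM scale, reads per gene divided by exon length and scaled to the library. Values of 1 or more had lost their decimal point and were restored to whole reads, which gave between 8298896 and 9714762 reads per library. All Hox values could be restored, with a posterior probability of at least 0.9997 for the least certain value. Levels are given below as TPM after scaling by trimmed mean of M values (TMM), and reads as whole numbers. Intervals on reads are exact Poisson intervals at 95% and cover counting error only, and for a count of 0 a limit of 3 reads is given instead.

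The sorted cells expressed macrophage genes at high levels. NimC4, a phagocytic receptor, had 94466, 58746 and 111011 reads in mac>DfosDN libraries, against 143341, 151908 and 163678 in control libraries. Over 11 of the 12 macrophage markers (1 could not be restored), summed levels ran between 7991 and 12380 TPM in mac>DfosDN libraries and between 14583 and 19962 TPM in control libraries, without overlap. Most of that sum was NimC4, with 9689, 6920 and 11257 TPM in mac>DfosDN libraries and 13450, 14871 and 18057 TPM in control libraries. Among the 10 markers tested, 1 was higher and 4 lower without overlap, against 11.5% and 10.4% of all genes tested. The others, crq among them, overlapped. Of the 10 markers tested 1 was called, against 1.15% of the 7507 genes tested, 0.573% higher and 0.573% lower in mac>DfosDN. This was the transcription factor gene gcm, which had 1447, 1393 and 1277 reads in mac>DfosDN libraries and 793, 899 and 605 reads in control libraries (log2 fold change 0.95, SE 0.17, limma adjusted p = 0.0352). Its adjusted p ran from 0.0713 to 0.144 with any 1 library left out, and was 0.0554 with the replicate number as a block, 0.0576 with every gene of at least 1 read tested and 0.281 with every value at its smallest power of 10. With limma-voom NimC4 was called lower as well (log2 fold change -0.75, adjusted p = 0.0191), which in the first fit it was not (adjusted p = 0.0988). kay had 941, 945 and 866 reads in mac>DfosDN libraries, against 368, 784 and 665 in control libraries, and its log2 fold change was 0.75 (SE 0.33, limma adjusted p = 0.298). Reads of the endogenous gene and of the transgene cannot be told apart in that value. Control replicate 3 stood apart in 2 hemocyte genes, with 878 Hml reads and 176 He reads where the other control libraries had at most 52 and 15.

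Genes of other tissues were also read in every library. The summed level of 6 epidermis markers was 119.8, 143.4 and 141.1 TPM in mac>DfosDN libraries and 93.6, 95.9 and 79.8 TPM in control libraries, without overlap. Most of that sum was pnr, and the other 5 markers summed to 28.9, 52.5 and 26.5 TPM in mac>DfosDN libraries and 30.2, 31.8 and 25.4 TPM in control libraries, which overlapped. That of 4 of the 5 amnioserosa markers (1 could not be restored) was also apart, with 4.51 to 7.56 TPM in mac>DfosDN libraries and 2.75 to 3.36 TPM in control libraries. The summed levels of the genotypes overlapped for the muscle and visceral mesoderm, trachea, salivary gland, midgut, crystal cell and germ cell lists. Tested members of these lists without overlap in level were GATAe, fkh and twi (higher in mac>DfosDN) and Mef2 (lower). In the epidermis, amnioserosa and nervous system lists they were pnr, rho, Doc1, Kr and pros (higher) and nerfin-1 (lower). Over all genes tested, 11.5% were higher and 10.4% lower without overlap. The midgut gene GATAe had 109, 120 and 51 reads in mac>DfosDN libraries and 26, 18 and 1 in control libraries (limma adjusted p = 0.119). The salivary gland gene fkh had 193, 187 and 121 against 83, 74 and 33 (limma adjusted p = 0.136). No gene of any of these lists was called by limma on log2(TPM + 0.1), against 1.15% of all genes tested. With limma-voom pnr was called higher (log2 fold change 0.70, adjusted p = 0.0357). The summed level of 9 nervous system markers was 50.7, 51.6 and 39.2 TPM in mac>DfosDN libraries and 53.2, 50.1 and 37.6 TPM in control libraries. The neuronal gene elav had between 1480 and 1666 reads in mac>DfosDN libraries and between 899 and 1716 in control libraries. Within the lists the members differed. In the muscle list Mef2 had between 457 and 587 reads in mac>DfosDN libraries and between 581 and 970 in control libraries, whereas nau had at most 4 in any library. In the germ cell list gcl had between 347 and 372 reads in mac>DfosDN libraries and between 360 and 473 in control libraries, whereas vas, nos and pgc had at most 12 in any library. The part of such RNA in the Hox values was not tested, and in bulk samples a smaller number of expressing cells and less RNA per cell cannot be told apart.

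All 8 Hox genes lie on chromosome arm 3R (Ensembl annotation of BDGP6.54) in the Antennapedia and bithorax complexes, which are 9.66 Mb apart. The Antennapedia complex genes are lab (6661427 to 6678590), pb (6707800 to 6742063), Dfd (6791836 to 6802428), Scr (6823120 to 6849981) and Antp (6896253 to 6999228). The bithorax complex genes are Ubx (16656623 to 16734426), abd-A (16807214 to 16830049) and Abd-B (16927212 to 16972236). Dfd is on the plus strand and the other members are on the minus strand. Exons of Antp overlap those of CG46458 on the same strand, and exons of Ubx overlap those of asRNA:PS4 on the opposite strand. Neither of these genes is listed in the files, so reads in the shared exons cannot be assigned with certainty.

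Hox transcripts were a small part of the RNA of the sorted cells. The 8 genes together had 593, 727 and 420 reads in mac>DfosDN libraries and 872, 489 and 446 reads in control libraries, 3547 in all. Per 1000000 restored reads this was 67.4, 87.6 and 47.1 in mac>DfosDN libraries and 93.6, 50.3 and 51.9 in control libraries. The highest library held 1.99 times the share of the lowest, each genotype had high and low libraries, and the genotypes overlapped. The summed level averaged 13.7 ± 4.43 TPM in mac>DfosDN libraries and 12.8 ± 4.17 TPM in control libraries (SD, n = 3 each).

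**Figure D1:**
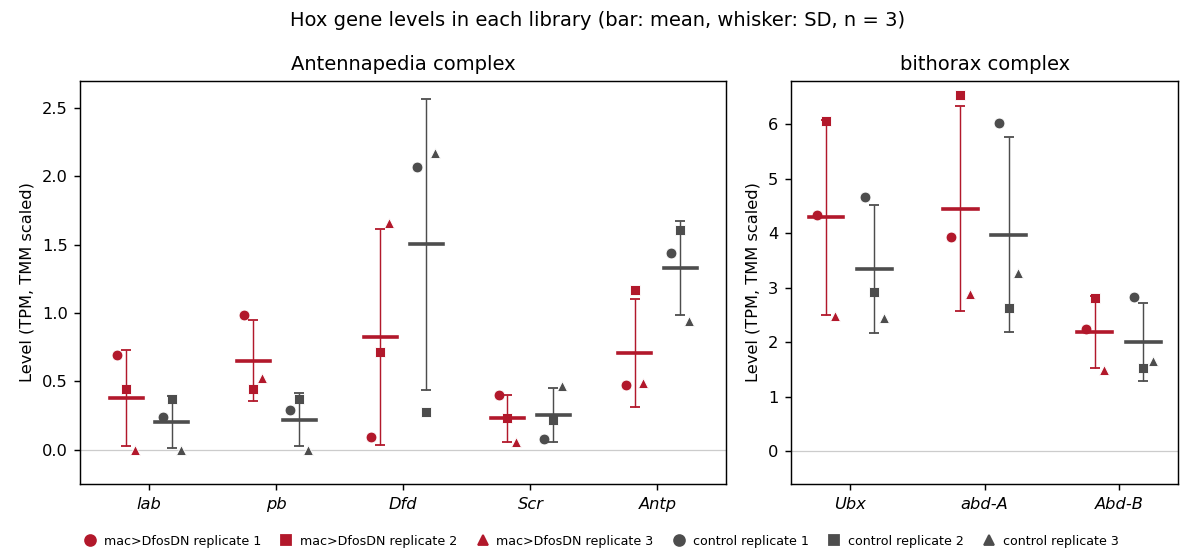
Level of each Hox gene (vertical axis, TMM scaled TPM) in each library, with genes in chromosomal order from left to right and mac>DfosDN (red) left of control (grey); horizontal bars are means and whiskers SD (n = 3). The 3 bithorax complex genes lie between 1.50 and 6.53 TPM in all 6 libraries, while the 5 Antennapedia complex genes lie between 0 and 2.17 TPM.

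The reads came mostly from the bithorax complex, the genes of the posterior thorax and abdomen. Ubx, abd-A and Abd-B together made up 81.5% of all Hox reads (2890 of 3547). Per library their share was 85.3%, 86.5% and 81.0% in mac>DfosDN libraries and 82.2%, 73.4% and 76.0% in control libraries. The exact binomial 95% intervals of these shares ran from 82.2% to 88.1%, from 83.8% to 88.9% and from 76.9% to 84.6% in mac>DfosDN libraries, and from 79.5% to 84.7%, from 69.3% to 77.3% and from 71.8% to 79.9% in control libraries. The share averaged 84.3% ± 2.93 in mac>DfosDN libraries and 77.2% ± 4.53 in control libraries (SD, n = 3 each), and the genotypes overlapped, as control replicate 1 was above mac>DfosDN replicate 3.

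Ubx, which specifies the third thoracic and the first abdominal segment, had 141, 172 and 82 reads in mac>DfosDN libraries and 166, 100 and 74 reads in control libraries. This was a level of 4.33, 6.07 and 2.49 TPM in mac>DfosDN libraries, against 4.66, 2.93 and 2.44 TPM in control libraries. Replicate 2 of mac>DfosDN was the highest, control replicate 1 came next, and the control range lay almost wholly within that of mac>DfosDN. The log2 fold change was 0.32 (SE 0.43, 95% interval -0.66 to 1.29, limma adjusted p = 0.768).

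abd-A, which specifies the segments of the middle abdomen, had 164, 237 and 122 reads in mac>DfosDN libraries and 274, 115 and 127 reads in control libraries. Its level was 3.94, 6.53 and 2.90 TPM in mac>DfosDN libraries, against 6.02, 2.64 and 3.28 TPM in control libraries. The same pair of libraries, mac>DfosDN replicate 2 and control replicate 1, stood above the other 4. The log2 fold change was 0.17 (SE 0.44, 95% interval -0.83 to 1.16, limma adjusted p = 0.889), and its sign turned when mac>DfosDN replicate 2 (-0.14) or control replicate 2 (-0.076) was left out.

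Abd-B, which specifies the posterior abdomen and the genital segments, had 201, 220 and 136 reads in mac>DfosDN libraries and 277, 144 and 138 reads in control libraries. Its level was 2.24, 2.82 and 1.50 TPM in mac>DfosDN libraries, against 2.83, 1.53 and 1.66 TPM in control libraries. Control replicate 1 and mac>DfosDN replicate 2 were again the highest and close to each other. The log2 fold change was 0.13 (SE 0.45, 95% interval -0.89 to 1.15, limma adjusted p = 0.926), and it too turned when mac>DfosDN replicate 2 (-0.070) or control replicate 2 (-0.030) was left out.

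Antp, which specifies the second thoracic segment, was the most read Hox gene of the Antennapedia complex. It had 27, 58 and 28 reads in mac>DfosDN libraries and 90, 96 and 50 reads in control libraries. Its level was 0.473, 1.17 and 0.485 TPM in mac>DfosDN libraries, against 1.44, 1.60 and 0.942 TPM in control libraries. Replicates 1 and 3 of mac>DfosDN were below every control library, whereas mac>DfosDN replicate 2 was above control replicate 3, so the genotypes overlapped. The mean was 0.708 ± 0.397 TPM in mac>DfosDN libraries and 1.33 ± 0.345 TPM in control libraries (SD, n = 3 each). The log2 fold change was -0.90 (SE 0.56, 95% interval -2.17 to 0.37, limma adjusted p = 0.479). With limma-voom on the restored reads it was -1.06 (SE 0.49, adjusted p = 0.293), and the unadjusted p of that fit was 0.0455.

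Dfd, which specifies the mandibular and maxillary segments of the head, varied most between libraries among the Hox genes tested. It had 2, 13 and 35 reads in mac>DfosDN libraries and 47, 6 and 42 reads in control libraries. Its level was 0.0960, 0.717 and 1.66 TPM in mac>DfosDN libraries, against 2.06, 0.275 and 2.17 TPM in control libraries. Each genotype held libraries that were several-fold apart, and the Poisson intervals of the lowest (0.242 to 7.22 reads) and the highest library (34.5 to 62.5 reads) did not meet. The log2 fold change was -0.90 (SE 0.97, 95% interval -3.09 to 1.29, limma adjusted p = 0.692).

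pb, which with Scr forms the adult mouthparts, was the Hox gene whose genotypes did not overlap. It had 28, 11 and 15 reads in mac>DfosDN libraries and 9, 11 and 0 reads in control libraries. Its level was 0.988, 0.446 and 0.523 TPM in mac>DfosDN libraries, against 0.290, 0.370 and 0 TPM in control libraries. The lowest mac>DfosDN library and the highest control library both had 11 reads and were parted only by the scaling to library size. Over all 7507 genes tested, 11.5% were higher and 10.4% lower in mac>DfosDN without overlap (21.9% in either direction), so that 1 of the 6 Hox genes tested is near that background. pb passed the filter on low reads in 4 libraries, the 3 of mac>DfosDN and control replicate 2. The log2 fold change was 1.44 (SE 0.81, 95% interval -0.39 to 3.28, limma adjusted p = 0.424), and the exact two-sided permutation p was 0.1, the smallest that 3 against 3 can give. Without control replicate 3, the library with no pb read, the log2 fold change was 0.74 (limma adjusted p = 0.754). The limit of 3 reads there is 0.112 TPM before TMM scaling.

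Scr and lab were under the filter of 10 reads in at least 3 libraries and were not tested with the other genes. Scr, which specifies the labial and the first thoracic segment and the salivary gland, had 14, 7 and 2 reads in mac>DfosDN libraries and 3, 8 and 15 reads in control libraries. Its level was 0.402, 0.231 and 0.0568 TPM in mac>DfosDN libraries, against 0.0788, 0.219 and 0.464 TPM in control libraries, and both genotypes covered nearly the same range (exact two-sided permutation p = 0.8). lab, which acts in the intercalary segment of the head and in the midgut, had 16, 9 and 0 reads in mac>DfosDN libraries and 6, 9 and 0 reads in control libraries. Its level was 0.691, 0.446 and 0 TPM in mac>DfosDN libraries, against 0.237, 0.371 and 0 TPM in control libraries (exact two-sided permutation p = 0.6). The libraries at 0, replicate 3 of each genotype, have a limit of 3 reads, or 0.133 TPM in mac>DfosDN and 0.137 TPM in control before TMM scaling.

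None of the 6 Hox genes tested passed an adjusted p of 0.05, and none had an unadjusted p under 0.05 in that fit. Over all 7507 genes tested, 1.15% were called, 43 higher in mac>DfosDN (0.573%) and 43 lower (0.573%). With limma-voom, which called 2.04% of the genes, 1 Hox gene (Antp) had an unadjusted p under 0.05 and none passed after adjustment. The intervals bound what the data could miss. For abd-A they ran from 0.564 to 2.24 times the control level, for Ubx from 0.631 to 2.45 times and for Abd-B from 0.539 to 2.21 times. They were wider for the genes with fewer reads. The intervals ran from 0.223 to 1.30 times for Antp, from 0.117 to 2.45 times for Dfd and from 0.762 to 9.71 times for pb.

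**Figure D2:**
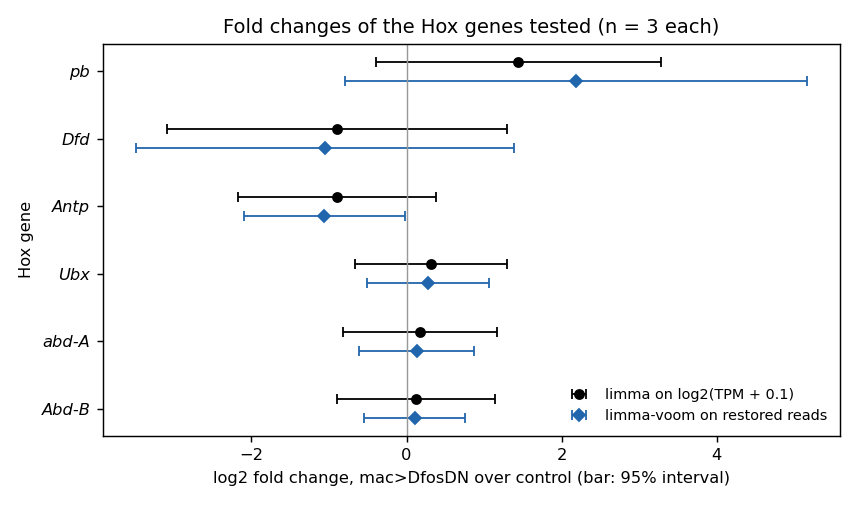
log2 fold change of the 6 Hox genes tested, mac>DfosDN over control (horizontal axis), with 95% intervals, from limma on log2(TPM + 0.1) (black circles) and from limma-voom on restored reads (blue diamonds). All intervals of the first fit span 0; that of Antp under limma-voom ends at -0.02.

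The order of the Hox genes depended on whether reads were divided by length. By mean TPM over the 6 libraries the order was abd-A (4.22 TPM), Ubx (3.82 TPM), Abd-B (2.10 TPM), Dfd (1.16 TPM), Antp (1.02 TPM), pb (0.436 TPM), lab (0.291 TPM) and Scr (0.242 TPM). The ranges of every neighbouring pair overlapped. Within libraries, Ubx was above Abd-B in 6 of 6 and abd-A above Ubx in 4 of 6, while Dfd was above Antp in 3 of 6 and pb above lab in 3 of 6. In a 3′ end library, the kind named in the study's methods, a transcript gives reads near its end whatever its length, so that division by exon length lowers long genes. Abd-B has 11791 bases of exon, against 4282 for Ubx, and by reads the order was Abd-B (1116), abd-A (1039), Ubx (735), Antp (349), Dfd (145), pb (74), Scr (49) and lab (40). In reads Abd-B was above Ubx in 6 of 6 libraries, between 1.28 and 1.86 times. On either scale the 3 bithorax complex genes came first. Among the genes tested, 31.9% had a lower mean TPM than abd-A and 18.5% a lower one than Abd-B.

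The libraries differed by more than counting error. The SD of the reads over the 6 libraries was between 1.90 (Scr) and 5.09 (abd-A) times that of a Poisson count with the same mean. These reads were not scaled for depth and came from both genotypes, so depth and genotype differences are part of that SD. The residual SD of the fit, on the log2 scale, was 1.55 for Dfd, 0.94 for pb, 0.59 for abd-A, 0.56 for Ubx, 0.53 for Antp and 0.45 for Abd-B, against a median of 0.35 and an upper quartile of 0.59 over all genes tested. All 6 were above that median, and Dfd and pb had the fewest reads of the 6.

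The 3 bithorax complex genes varied together. Across the 6 libraries their pairwise Pearson r of log2 levels was 0.90 for Ubx with abd-A, 0.94 for Ubx with Abd-B and 0.97 for abd-A with Abd-B. The ratio of abd-A to Ubx levels stayed between 0.899 and 1.34, and that of Abd-B to abd-A levels between 0.431 and 0.582, while their summed level ran from 6.88 to 15.4 TPM. In the Antennapedia complex the 10 pairs had r between -0.79 (lab with Dfd) and 0.64 (lab with pb), and the 15 pairs across the complexes had r between -0.28 and 0.76. These values describe 6 libraries, in which all genes share the depth and scaling of the library.

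The same libraries were high for several other genes of the trunk and head. Replicate 2 of mac>DfosDN and control replicate 1 were the 2 highest of the 6 for Ubx, abd-A, Abd-B, hth, tsh, disco, grh (an epidermal transcription factor) and elav. Over these libraries the bithorax sum had r = 0.98 with the summed cofactor list and r = 0.99 with the summed trunk and tail list. Single members followed the bithorax sum less closely, with r between 0.20 (exd) and 0.99 (hth) in the cofactor list (3 of 6 over 0.8) and between -0.24 (gsb) and 0.89 (salm) in the trunk and tail list (2 of 14 over 0.8). In the epidermis list r ran from 0.08 (pnr) to 0.96 (grh), with 2 of 6 over 0.8. In the nervous system list it ran from -0.06 (wor) to 0.81 (dpn), with 1 of 9 over 0.8 and elav at 0.71. With the macrophage marker sum, most of which was NimC4 (r = -0.66), r was -0.65. With the epidermis sum, most of which was pnr (r = 0.08), r was 0.29. With the germ cell sum r was -0.56, with the muscle sum 0.09 and with the head regional sum 0.61. With the nervous system sum r was 0.72, with the trachea sum 0.80 and with the midgut sum 0.81. The Antennapedia sum had r = 0.27 with the cofactor sum and 0.23 with the trunk and tail sum. Replicate 2 of mac>DfosDN had the fewest restored reads of the 6 libraries and control replicate 1 the second most. The part of cells or RNA from the trunk in this spread was not tested.

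**Figure D3:**
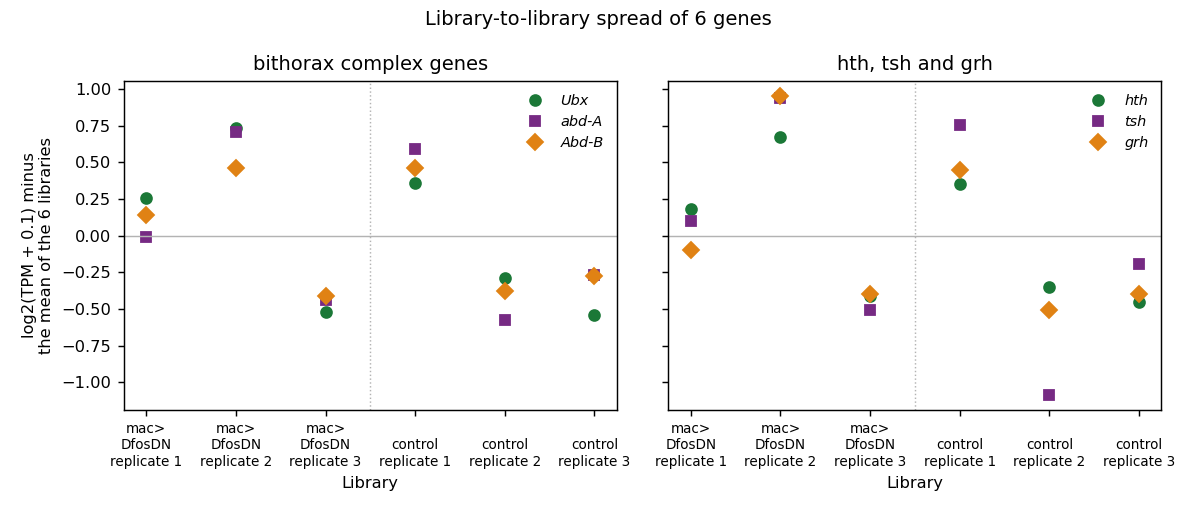
Level of Ubx, abd-A and Abd-B (left) and of hth, tsh and grh (right) in each library, as log2(TPM + 0.1) minus the mean of the gene over the 6 libraries (vertical axis), with mac>DfosDN left of control. For all 6 genes mac>DfosDN replicate 2 and control replicate 1 are the highest libraries, and replicate 3 of both genotypes and control replicate 2 lie below the mean. Of the 6 epidermis markers, grh followed the summed bithorax level most closely (r = 0.96) and pnr least (r = 0.08).

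The 5 genes outside the complexes listed next were closest in pattern to the summed Hox level across the 6 libraries. These were CG9248 (r = 0.992), Gasp (r = 0.988), sano (r = 0.985), Spn43Aa (r = 0.984) and D (r = 0.982). Gasp encodes a chitin-binding protein of the tracheal and cuticle matrix, and D (Dichaete) a Sox transcription factor of segmentation and the nervous system. D had 331, 544 and 236 reads in mac>DfosDN libraries and 617, 283 and 292 reads in control libraries, with the same pair of libraries highest. Of the 7501 genes compared, 70 had r over 0.9 and 54 had r under -0.9, the first of these being 0.933% of the genes.

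The cofactors of Hox proteins were read at higher levels than the Hox genes. exd encodes the homeodomain partner with which most Hox proteins bind DNA, and hth the protein that brings Exd into the nucleus. hth had 2024, 2490 and 1358 reads in mac>DfosDN libraries and 2494, 1466 and 1212 reads in control libraries, and its level of 20.8 TPM over the 6 libraries was above that of every Hox gene. Its log2 fold change was 0.30 (SE 0.32, limma adjusted p = 0.691). exd had 548, 391 and 326 reads in mac>DfosDN libraries and 484, 553 and 431 reads in control libraries, with a log2 fold change of -0.15 (limma adjusted p = 0.808). Unlike hth, it was not highest in mac>DfosDN replicate 2 and control replicate 1.

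The zinc finger genes tsh and disco varied across libraries much as the bithorax genes did. tsh, which acts with Hox genes to give trunk identity, had 174, 273 and 114 reads in mac>DfosDN libraries and 301, 78 and 131 reads in control libraries (log2 fold change 0.35, SE 0.53, limma adjusted p = 0.794). disco, which acts in the gnathal head with Dfd and Scr, had 195, 325 and 206 reads in mac>DfosDN libraries and 384, 216 and 167 reads in control libraries (log2 fold change 0.06, SE 0.36, limma adjusted p = 0.957). Of the 6 genes of this list 5 were tested and none was called, against 1.15% of all genes tested. Their median log2 fold change was 0.30, against 0.15 for the 6 Hox genes tested and 0.02 over all genes tested.

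Among the regulators that keep Hox genes silent or active, 1 was called. Of 19 Polycomb group genes 18 were tested and Psc rose (1 of 18, against 1.15% of all genes called and 0.573% called higher), with 13 of the 18 log2 fold changes above 0 and a median of 0.27. Psc, a core subunit of Polycomb repressive complex 1, had 3514, 6035 and 3419 reads in mac>DfosDN libraries and 1663, 1453 and 1141 reads in control libraries. All mac>DfosDN libraries were above all control libraries, and the log2 fold change was 1.66 (SE 0.27, limma adjusted p = 0.0287). The call was lost without control replicate 1 (adjusted p = 0.0515), 2 (0.0860) or 3 (0.124), with every value at its smallest power of 10 (0.239) and with every gene of at least 1 read tested (0.0576). Its paralogue and neighbour Su(z)2 had 350, 372 and 596 reads in mac>DfosDN libraries and 177, 217 and 202 reads in control libraries, again without overlap (log2 fold change 1.18, SE 0.32, limma adjusted p = 0.118). With limma-voom its adjusted p was 0.0207. Su(z)2 was named after its values were seen.

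The other abundant Polycomb group genes did not pass. Of 18 Polycomb group genes tested, 5 were higher and 1 lower without overlap, against 11.5% and 10.4% of all genes tested. Those without overlap included phol (higher) and Jarid2 (lower). Jarid2, a partner of Polycomb repressive complex 2, had a log2 fold change of -0.35 (limma adjusted p = 0.420), and the DNA-binding proteins encoded by phol and pho had 0.43 (adjusted p = 0.359) and 0.08 (adjusted p = 0.887). All 14 trithorax group genes, which keep Hox genes active, were tested and none was called, against 1.15% of all genes tested. Of their log2 fold changes 9 were above 0, and the median was 0.09, against 0.02 over all genes tested. The most abundant were Snr1, brm and mor, subunits of the Brahma remodelling complex, with log2 fold changes of 0.16, 0.31 and 0.06, and the bromodomain gene fs(1)h, with 0.15.

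**Figure D4:**
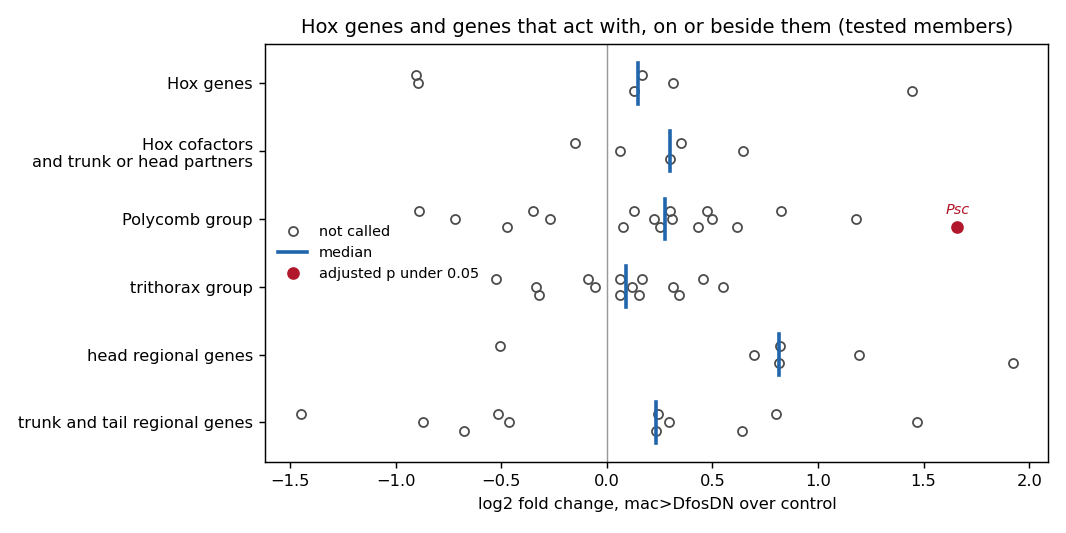
log2 fold change, mac>DfosDN over control (horizontal axis), of the tested members of the Hox genes and of 5 lists of genes that act with, on or beside them (rows); open circles were not called, the filled red circle (Psc) has an adjusted p under 0.05, and blue bars are medians. The 6 Hox genes lie between -0.90 and 1.44, with a median of 0.15.

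Other regional genes of the embryo were also read, and none was called, against 1.15% of all genes tested. Of 8 genes of the head 6 were tested, 5 of them above 0. Their median log2 fold change was 0.82, against 0.02 over all genes tested. Without overlap, 2 of the 6 were higher and 1 lower, against 11.5% and 10.4% of all genes tested. The segment gene btd had 25, 53 and 40 reads in mac>DfosDN libraries and 8, 11 and 8 reads in control libraries, without overlap (log2 fold change 1.92, SE 0.55, limma adjusted p = 0.136). It was chosen after its values were seen, as the head gene with the smallest adjusted p. The most abundant, cnc, slp1 and ems, had log2 fold changes of -0.51, 0.81 and 0.69 (limma adjusted p = 0.309, 0.408 and 0.497). The level of cnc was lower in mac>DfosDN without overlap. Of 14 genes of trunk and tail 11 were tested, 6 of them above 0, with a median of 0.23. The posterior gene cad had 97, 50 and 45 reads in mac>DfosDN libraries and 55, 10 and 18 reads in control libraries, which overlapped (log2 fold change 1.47, SE 0.61, limma adjusted p = 0.282). The segment polarity genes hh and gsb had log2 fold changes of 0.24 and -0.47 (limma adjusted p = 0.780 and 0.538).

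Reads from the complexes were not spread evenly over their genes. Of the 37 other genes listed within the Antennapedia complex 20 had reads, and 2 had more than 100 over the 6 libraries. Ama, an immunoglobulin-domain cell adhesion gene, had 2957, 2149 and 2357 reads in mac>DfosDN libraries and 3203, 1900 and 1701 reads in control libraries, more than all 8 Hox genes together in each library (log2 fold change 0.27, limma adjusted p = 0.559). The homeobox genes of the complex that are not Hox genes were low or absent. bcd had between 3 and 36 reads in mac>DfosDN libraries and between 0 and 28 in control libraries, ftz had between 3 and 9 in mac>DfosDN libraries and between 0 and 3 in control libraries, and zen and zen2 were at 0 in all 6.

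In the bithorax complex 2 of the 10 other genes listed had reads. They were the non-coding RNAs of the infraabdominal region. iab-8 had 29, 45 and 25 reads in mac>DfosDN libraries and 48, 18 and 14 reads in control libraries (log2 fold change 0.48, limma adjusted p = 0.755), again highest in mac>DfosDN replicate 2 and control replicate 1. iab-4 had 7, 4 and 16 reads in mac>DfosDN libraries and 8, 1 and 15 reads in control libraries, and was highest in replicate 3 of each genotype.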

How the data were processed

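The deposited columns hold neither counts nor log values but values on the TPM scale, which the authors made by an unstated step and whose decimal points are lost from 1 upward (recorded here as a unit of its own, other than TPM). The study's methods name 3′ end libraries, the labels standard Illumina protocols. Per the labels, reads of 50 bases were mapped to BDGP6 with STAR 2.5.1b and counted with HTSeq 0.5.4p3, and edgeR and limma in R 3.4.4 were used downstream.

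The members and gene lists were chosen with earlier results of these data known. Each value is a whole number of reads divided by exon length and multiplied by a library constant (Ensembl BDGP6.54, a later annotation). The constants came from the intact values, of which 97.9% to 98.4% per library then gave whole reads (tolerance 0.0001 reads). For 137 genes, Antp among them, the length came from the values (Antp 7508 bases). The power of 10 was chosen by a negative binomial model that did not use the genotypes. Of 17494 genes, 11723 were restored, 5335 were at 0 throughout, 89 lacked an exon length, 6 gave no whole number and 341 were set aside for a posterior under 0.9. A power chosen from the other libraries works against differences near 10-fold.

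Tested were genes with 10 or more reads (scaled to the median library) in 3 or more libraries and 15 or more in all, using limma 3.58.1 (intensity trend) on log2(TPM + 0.1) after TMM scaling (30% of log ratios and 5% of intensities trimmed), with Benjamini-Hochberg adjustment over 7507 genes. The pseudocount shrinks log2 fold changes of low genes towards 0. All 6 libraries entered, with no covariate. Named were all Hox genes and, of each list, the members called and up to 4 with the highest mean TPM. Others were named after their values were seen (btd, Su(z)2, pros, and markers given as the low or high end of a list). The steps were run on simulated libraries with the same dispersion for every gene and with changes only in genes with more reads. Changes in genes with as few reads as lab, pb and Scr were not simulated. R 4.3.3, Python 3.11.15, NumPy 2.4.6, SciPy 1.17.1 and pandas 2.3.3 were used. Alternatives were other choices of the power of 10, pseudocounts of 1 and 0.5, limma-voom, no TMM, upper quartile scaling, other filters, a replicate block and leaving out each library. No sequence is printed, as no sequence of these genes was used here.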

Additional observations from a re-analysis of the deposited data

How the results depend on the processing

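No Hox gene passed an adjusted p of 0.05 under any alternative, and the lowest adjusted p was 0.293 (Antp with limma-voom). The signs for pb, Dfd, Antp and Ubx did not turn in any alternative that gave a value; those for abd-A and Abd-B turned without mac>DfosDN replicate 2 (-0.14 and -0.070) and without control replicate 2 (-0.076 and -0.030). With 1 library left out the log2 fold changes ran from 0.74 to 1.86 for pb, from -1.76 to -0.04 for Dfd, from -1.27 to -0.71 for Antp, from 0.03 to 0.64 for Ubx, from -0.14 to 0.50 for abd-A and from -0.07 to 0.39 for Abd-B. Other alternatives ran from 0.44 (pseudocount 1) to 2.19 (limma-voom) for pb, from -1.05 (limma-voom) to -0.44 (pseudocount 1) for Dfd and from -1.06 (limma-voom) to -0.46 (pseudocount 1) for Antp. Without mac>DfosDN replicate 3 the mean Dfd level of mac>DfosDN was 0.402 TPM instead of 0.825 TPM, and without control replicate 3 the mean Scr level of control was 0.15 TPM instead of 0.254 TPM. With every gene of at least 1 read tested, lab had a log2 fold change of 0.48 (limma adjusted p = 0.863) and Scr of -0.10 (limma adjusted p = 0.970).

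Over all genes, 43 were called higher and 43 lower in mac>DfosDN. The counts became 12 and 13 with the smallest power of 10 for every value, 88 and 112 with powers chosen from a mean for each genotype, 65 and 88 with limma-voom, and 7 and 14 with every gene of at least 1 read. With 1 library left out they ran from 1 to 35 higher and from 0 to 28 lower, and without control replicate 2 or control replicate 3 they were 1 and 0. Of the cofactor, Polycomb, trithorax and regional genes, limma-voom called 2 higher (Psc and Su(z)2), against 1 (Psc) on log2(TPM + 0.1) and on log2(TPM + 1). Same-numbered libraries did not deviate together (r = -0.03, 0.02 and 0.005 for replicates 1, 2 and 3), so the numbers were not taken as pairs, and with the replicate block 14 genes were called higher and 19 lower. The cause of these differences was not tested. Depth limits lab, pb and Scr, each at 28 reads or fewer in all 6 libraries.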
